A study of Rattus norvegicus with 2 samples.

Results

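The proteasome genes of rat liver were compared between 1 array from rats given olive oil and 1 array from fasted rats. They were found by symbol: a gene was a member when a probe set annotated to that gene alone carried a symbol beginning with Psm, then a letter from a to g, then a digit. This gave 46 genes on 60 probe sets, out of 14217 genes represented on the array, and each gene was read from its probe set of highest mean signal. Of the 46, 44 encode subunits, activators, an inhibitor or assembly factors of the proteasome. The other two, Psmc3ip and Psme3ip1, carry the name because their products bind proteasome proteins.

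The animals were male Wistar rats, an outbred laboratory strain, aged 2 months and weighing 250 to 300 g. All had been fasted for 18 h. Rats of the olive oil group then received a 5 ml bolus of olive oil, 16 ml per kg, and were killed 4 h later; rats of the fasted group received no fat. Whether the fasted rats were kept for the same 4 h, and how many livers contributed RNA to each array, is not given in the sources used here. With 1 array per group there is no replicate check, no standard deviation over animals and no p-value, and every difference below is a difference between 2 arrays.

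The proteasome degrades proteins that have been tagged with ubiquitin. Its barrel-shaped core is made of outer alpha rings, which form the gate, and inner beta rings, of which Psmb5, Psmb6 and Psmb7 carry the active sites. In immune cells and under interferon these are replaced by Psmb8, Psmb9 and Psmb10, which gives the immunoproteasome and alters the peptides offered to class I antigen presentation. Caps bind the ends of the core: the 19S cap recognises, unfolds and feeds in tagged proteins through a ring of ATPases, and the ring-shaped activators open the gate without ATP. In mammals the transcription factor NRF1, encoded by Nfe2l1, raises the genes of core and 19S cap together when proteasome activity falls short, through antioxidant response elements near their starts.

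The immunoproteasome genes are shown with the bases just before their transcription start, because they held the lowest member and because interferon elements of such promoters are well known. The stretches below come from RefSeq on GRCr8, each on the gene's own strand from 5′ to 3′, at chr20:4657026-4657125 (minus strand), chr20:4668900-4668999 (plus strand) and chr19:50743293-50743392 (minus strand). Capitals mark matches, on either strand, to the core of an interferon-stimulated response element, searched as GAAA, any 2 bases and GAAA again. The stretch of Psmb8 runs 6 bases past its start, since its match lies across the start; the others end at the last base before it.
Psmb8: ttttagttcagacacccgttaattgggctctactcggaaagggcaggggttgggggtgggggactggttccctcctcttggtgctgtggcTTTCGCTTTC
Psmb9: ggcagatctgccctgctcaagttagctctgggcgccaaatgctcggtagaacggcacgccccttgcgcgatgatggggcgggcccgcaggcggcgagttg
Psmb10: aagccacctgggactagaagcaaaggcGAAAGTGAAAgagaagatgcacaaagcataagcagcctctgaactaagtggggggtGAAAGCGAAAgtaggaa
Psmb10 held 2 matches and Psmb8 held 1, while these letters did not occur in the whole 300-base window of Psmb9. Psmb9 starts 457 bases from Tap1, a peptide transporter gene of antigen presentation, on chromosome 20, and the pair is transcribed in opposite directions. Psmb8 is the next gene beyond Tap1, followed by Tap2.

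Matches to TGACNNNGC, the core of the antioxidant response element, are shown for the members that had one before their start, since NRF1 acts through this element. Capitals mark the match on either strand, with up to 12 bases on each side, again from RefSeq on GRCr8.
Psma3, chr6:95219725-95219748, plus strand: gttctgtggcctGCCGGGTCAgca
Psmb2, chr5:144254978-144255010, plus strand: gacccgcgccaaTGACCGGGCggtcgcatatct
Psmb5, chr15:32047419-32047451, minus strand: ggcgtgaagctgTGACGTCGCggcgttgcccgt
Psmd1, chr9:94157794-94157826, plus strand: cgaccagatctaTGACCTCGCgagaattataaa
Psmd9, chr12:39018368-39018400, minus strand: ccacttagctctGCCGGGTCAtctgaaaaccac
Psmd9, chr12:39018321-39018353, minus strand: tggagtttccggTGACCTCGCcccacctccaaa
Psme4, chr14:108706576-108706608, plus strand: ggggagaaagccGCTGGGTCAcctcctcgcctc
Windows of 250 bases before to 50 after the start were listed for 42 of the 46 members. Of these 42, 7 held TGACNNNGC, which is 16.7%, against 12.2% of 27457 rat promoters and 14.7% of the 7767 promoters of measured genes. Psmd3 is the member whose only match lies after its start. The interferon core was in 7 of the 42 too, 16.7%, against 3.77% of all promoters and 3.12% of those of measured genes. CCAAT was in 22, 52.4%, against 37.7% and 38.3%, and TTCNNNGAA, a STAT element that reads the same on both strands, in 4, 9.52%, against 8.68% and 6.95%. In the members' windows, the only matches of different motifs to overlap were in Psmb2, where the last base of CCAAT is the first of TGACNNNGC. Both strands were searched, and a match describes letters, not binding by a factor. Outside the immunoproteasome, the interferon core stood in Psma4, Psmb3, Psmd7 and Psme2, and after the start of Psmg4. The stretch of Psme2 is printed because this activator gene is a known interferon target.
Psme2, chr15:33052783-33052816, minus strand: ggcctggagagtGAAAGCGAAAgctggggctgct

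Array-wide values set the scale for the members. The median signal over 31042 probe sets was 44.7 on the olive oil array and 42.5 on the fasted array. Bacterial transcripts added for the hybridization had a median log2 difference of 0.028 with an SD of 0.11 over 18 probe sets. The 27 probe sets of the poly-A control transcripts had a median of -0.22 with an SD of 0.45, and 22 of them were lower on the olive oil array. That shift is larger in size than the members' median of 0.12 given below, and its part in the members' values was not tested. Beta-actin probes at the 3′ end over those at the 5′ end, a reading of RNA integrity, gave 3.20 on the olive oil array and 2.63 on the fasted array. The same ratio for GAPDH was 1.34 on the olive oil array and 1.28 on the fasted array. All 7 hepatocyte markers analysed were bright, summing to 82111 on the olive oil array and 80521 on the fasted array, and Alb, serum albumin, stood at 17984 after olive oil and 17154 in fasted rats, which fits the liver label. Genes with a mean log2 signal of at least 5.37, a signal of 41.4, are called measured here, 9208 in all. The log2 differences of bright probe sets of the same gene had a pooled SD of 0.23 over 853 genes, called the probe scatter below. Over all measured probe sets it was 0.35, from 2290 genes. Over the measured probe sets of the members it was 0.34, from 6 genes, called the members' own scatter. Among these 6, the probe sets of Psmd9 lay furthest apart, at 0.49 and 1.55. The second of them had a fasted signal of 36.1, below the filter, so 0.34 is widened by an unsure reading. The value without Psmd9 was not computed. A difference between 0.23 and 0.34 thus exceeds the probe scatter but not the members' own. Each of these values is probe error and holds no variation between rats.

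Most proteasome genes were slightly higher after olive oil. Among the 46 members, 31 had a higher signal on the olive oil array and 15 a lower one, 67.4% higher, against 48.3% of measured genes. The share was 48% among the 5505 brighter ones, at or above the 75th percentile of probe sets, a signal of 181. The median log2 difference of the members was 0.12, a fold of 1.09, against -0.015 over all measured genes. With each array centred on its median, the members' median was 0.051 and that of all measured genes -0.088. All 46 members were measured, and 45 were among the brighter genes, Psmc3ip being the dim one. In 25 of them, 54.3%, the difference was within 0.23, the probe scatter of bright genes, close to the 51.2% of the brighter genes and against 44.5% of all measured ones.

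Large differences were rare. A single member, Psma3, was at least 1.5-fold higher after olive oil, and none was at least 1.5-fold lower, against 9.46% of measured genes higher and 10.1% lower. After centring on array medians the array-wide shares were 7.61% higher and 12.7% lower. In all, 45 of 46 members, 97.8%, lay within 1.5-fold, against 80.4% of measured genes and 85.6% of the brighter ones.

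**Figure D1:**
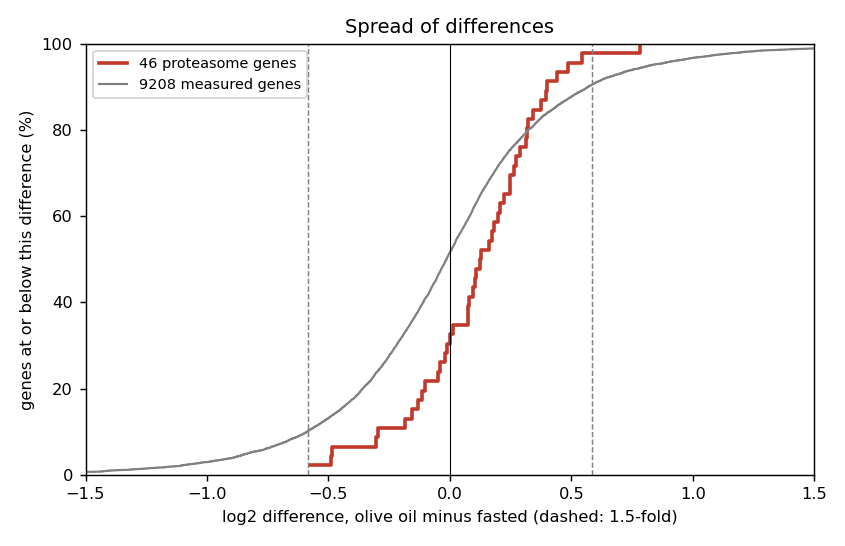
Share of genes (vertical axis, percent) at or below each log2 difference of olive oil minus fasted (horizontal axis), for the 46 proteasome genes in red and the 9208 measured genes in grey; values beyond 1.5 log2 units are outside the frame. The red curve is steeper and crosses its middle at 0.12, against -0.015 for the grey curve, and 45 of 46 members lie between the dashed lines at 1.5-fold.

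**Figure D2:**
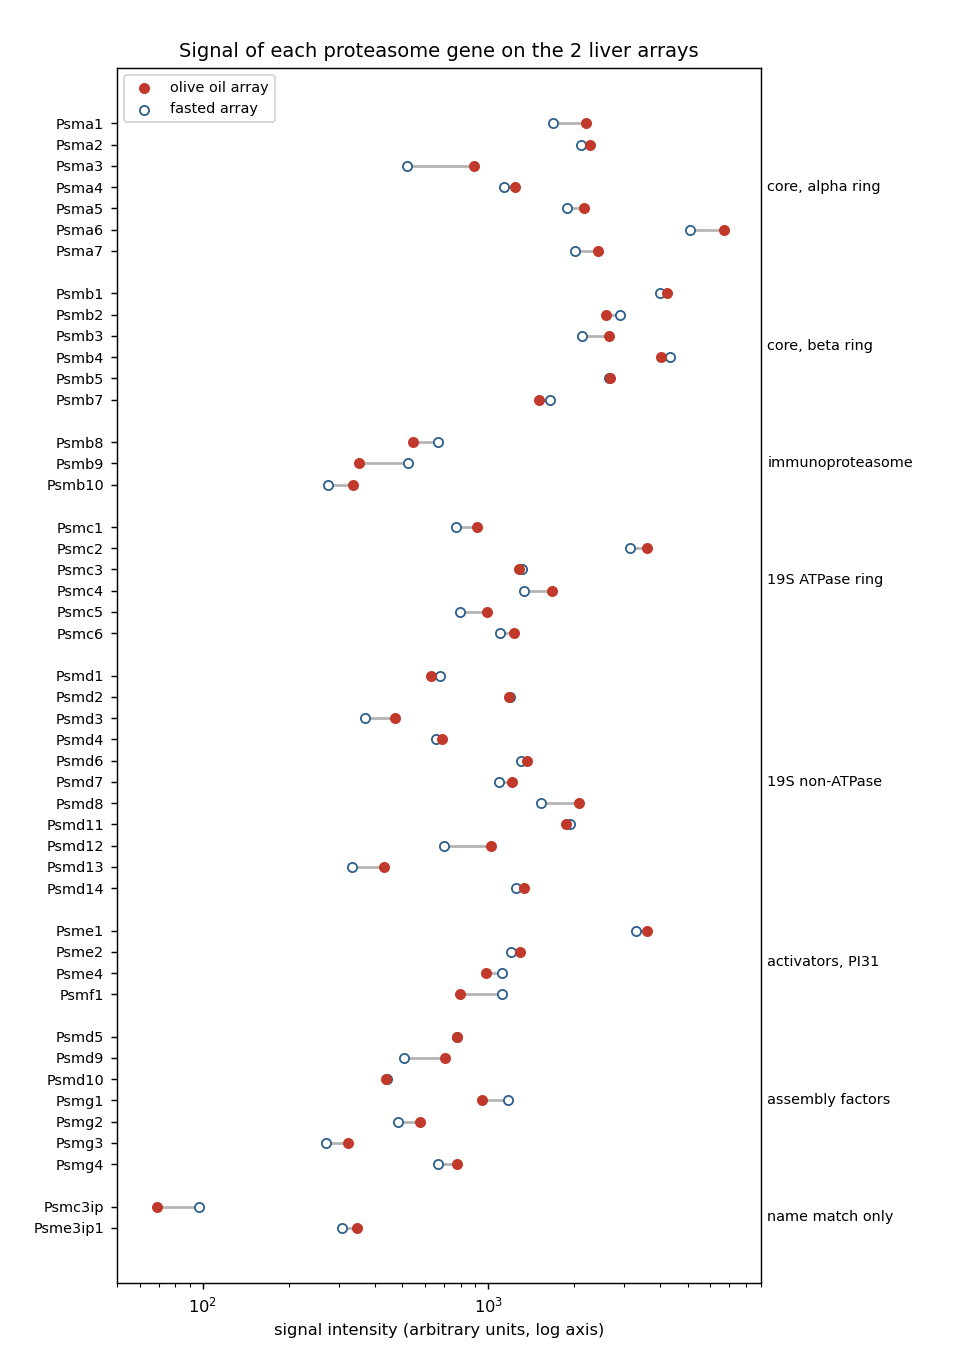
Signal of each member (rows, grouped by class) on the olive oil array (filled red) and the fasted array (open blue), in arbitrary units on a log axis, 1 array per group. In the alpha ring every red point lies right of its blue point, while Psmb8, Psmb9, Psmf1 and Psmg1 have the red point on the left; distances between rows cannot be compared, since each row is another probe set.

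The alpha ring of the core was the class with the highest median. All 7 measured alpha subunits were higher on the olive oil array, with log2 differences between 0.11 and 0.78 and a median of 0.27, a fold of 1.21. All 7 also stayed positive under each of the normalizations tried, and the median was 0.20 with the arrays centred on their medians. Psma3 had a signal of 890.9 on the olive oil array and 518.8 on the fasted array, 1.72-fold higher. A second probe set, annotated to both Psma3 and its copy Psma3l and therefore not used for the gene, gave 4052 on the olive oil array and 4029 on the fasted array, a log2 difference of 0.0084. The difference of Psma3 thus rests on 1 probe set, and without this gene the median of the whole constitutive core was 0.12 in place of 0.13.

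Psma6 and Psma1 followed. Psma6, an alpha subunit, had signals of 6725 after olive oil and 5096 in fasted rats, 1.32-fold higher. Psma1 had 2209 (olive oil) and 1682 (fasted), 1.31-fold higher. Both differences exceeded the probe scatter of 0.23, as did that of Psma7, at 2423 on the olive oil array and 2009 on the fasted array, a log2 difference of 0.27. The value of Psma7 lay within the members' own scatter of 0.34. The remaining alpha subunits differed by less than 0.23. Psma5 stood at 2168 after olive oil and 1881 in fasted rats, and Psma2 at 2275 after olive oil and 2112 in fasted rats. Psma4 stood at 1237 on the olive oil array and 1134 on the fasted array. Each of these genes had 1 probe set of its own, so that no second reading was available. No member of the ring was lower after olive oil.

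The beta ring was divided, and its catalytic members were nearly equal on the arrays. Of 6 measured beta subunits, 3 were higher and 3 lower on the olive oil array, with a median of -0.051. Psmb5, which carries the chymotrypsin-like site, had 2673 on the olive oil array and 2653 on the fasted array, a log2 difference of 0.011 that turned to -0.017 after quantile normalization and -0.062 after centring. Psmb7, with the trypsin-like site, had 1506 (olive oil) and 1652 (fasted), a log2 difference of -0.13. The probe set that covers Psmb6, the gene of the caspase-like site, is annotated to Psmb6l1 as well and is no member; it read 1514 on the olive oil array and 1530 on the fasted array. These 3 readings lay within the probe scatter.

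Non-catalytic beta subunits help to hold the ring together. Psmb3 was the highest of them, at 2651 after olive oil and 2127 in fasted rats, a log2 difference of 0.32. Psmb1 stood at 4225 after olive oil and 4010 in fasted rats, and Psmb4 at 4023 on the olive oil array and 4353 on the fasted array. Psmb2 had 2593 on the olive oil array and 2890 on the fasted array, the lowest of the ring at -0.16. Apart from Psmb3, which was inside the members' own scatter of 0.34 only, these differences were inside the probe scatter. Over alpha and beta subunits together, 10 of 13 were higher, with a median of 0.13.

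**Figure D3:**
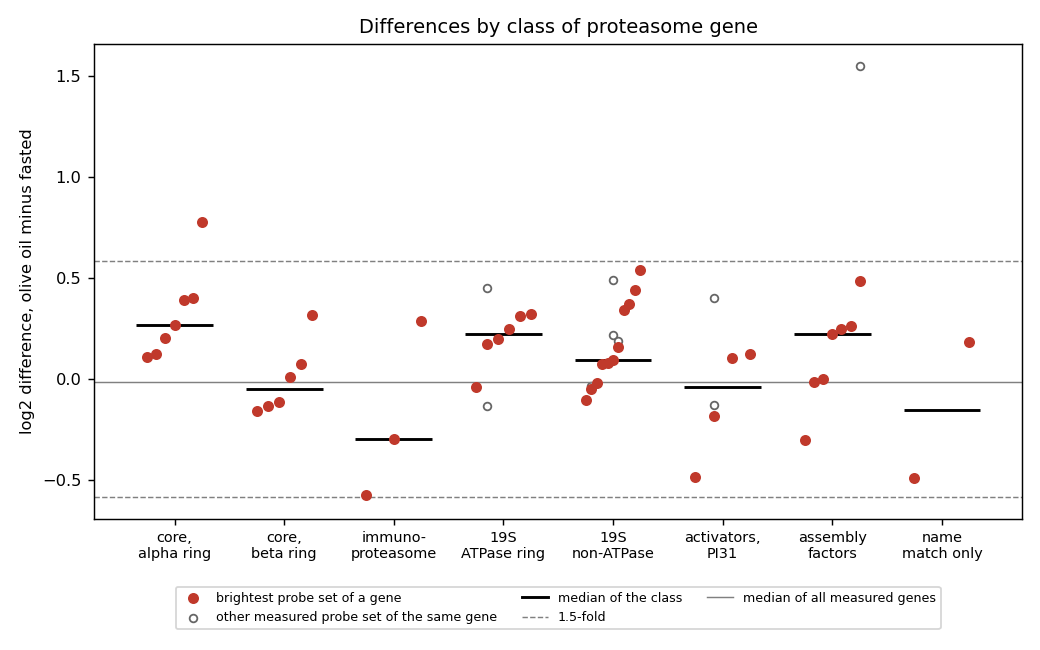
Log2 difference of olive oil minus fasted (vertical axis) for each member by class; red points are the brightest probe set of a gene, open points its other measured probe sets, black bars the class medians, dashed lines 1.5-fold and the grey line the median of all measured genes at -0.015. The alpha ring lies above the grey line throughout, and the open point of Psmd9 at 1.55 stands far from its red point at 0.49 and rests on a fasted signal below the filter.

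Immunoproteasome genes held the lowest member and went in both directions. Psmb9, which replaces Psmb6, had 351.6 on the olive oil array and 524.2 on the fasted array, 1.49-fold lower, just inside the 1.5-fold limit. With the arrays centred on their medians it passed that limit, as the single member at least 1.5-fold lower. Psmb8, which replaces Psmb5, had 543.7 (olive oil) and 668.1 (fasted), 1.23-fold lower. Psmb10, which replaces Psmb7, had 335.9 after olive oil and 275.2 in fasted rats, 1.22-fold higher. The median of the 3 genes was -0.30, which is 0.42 below that of the constitutive core on the log2 scale. All 3 differences exceeded 0.23, each on a single probe set, but only that of Psmb9 exceeded the members' own scatter of 0.34.

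Set against their constitutive counterparts, the exchangeable subunits differed unequally. The log2 difference of Psmb8 was 0.31 below that of Psmb5, at -0.30 for Psmb8 and 0.011 for Psmb5. For Psmb10 the order was the other way, 0.29 for Psmb10 and -0.13 for Psmb7, 0.42 apart. Neither gap has a replicate check. The 3 immunoproteasome genes thus shared no direction on these arrays.

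Interferon response and class I presentation genes were set beside them, from a list written with earlier results of these arrays known. Of 18 measured genes of this list, 15 had a lower signal after olive oil and 3 a higher one, with a median log2 difference of -0.50. By a fold of 1.5 or more, 9 were lower and 0 higher, where 10.1% of all measured genes were lower and 9.46% higher. Mx1 and Mx2 were below the filter signal of 41.4 on the olive oil array and passed it on average only through the fasted array. Among the 16 genes that reached it on both arrays, a count added after seeing the data, 13 were lower, 8 of them by 1.5-fold or more, against 9.19% of 8802 such genes on the whole array. Their median was again -0.50. The lowest were Mx2 and Oas1a, antiviral effectors, and Gbp2, a guanylate-binding protein. Mx2 had 31.2 on the olive oil array and 146.0 on the fasted array. Oas1a had 64.7 on the olive oil array and 152.8 on the fasted array, and Gbp2 had 52.0 (olive oil) and 119.3 (fasted). The value of Mx2 on the olive oil array lies below the filter, and the other two lie above it. Irf1, the interferon-induced factor that binds elements of this kind, was outside the 3 lowest and is named for that role, after its values were seen; it had 238.8 after olive oil and 402.1 in fasted rats, 1.68-fold lower.

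Tap1 and Tap2, of the same chromosomal cluster as Psmb8 and Psmb9, can be read in gene order. Tap1, head to head with Psmb9, had 112.6 on the olive oil array and 178.3 on the fasted array, a log2 difference of -0.66 beside -0.58 for Psmb9. Tap2, on the far side of Psmb8, had 109.2 on the olive oil array and 101.5 on the fasted array, a log2 difference of 0.11. Tapbp and B2m are given as genes of the list, not by position. Tapbp, the highest of the list at 0.38, had 219.5 (olive oil) and 168.6 (fasted). B2m, the light chain of class I molecules, was nearly equal at 14430 after olive oil and 14859 in fasted rats. Tap1 and B2m were chosen for the text after their values were seen.

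**Figure D4:**
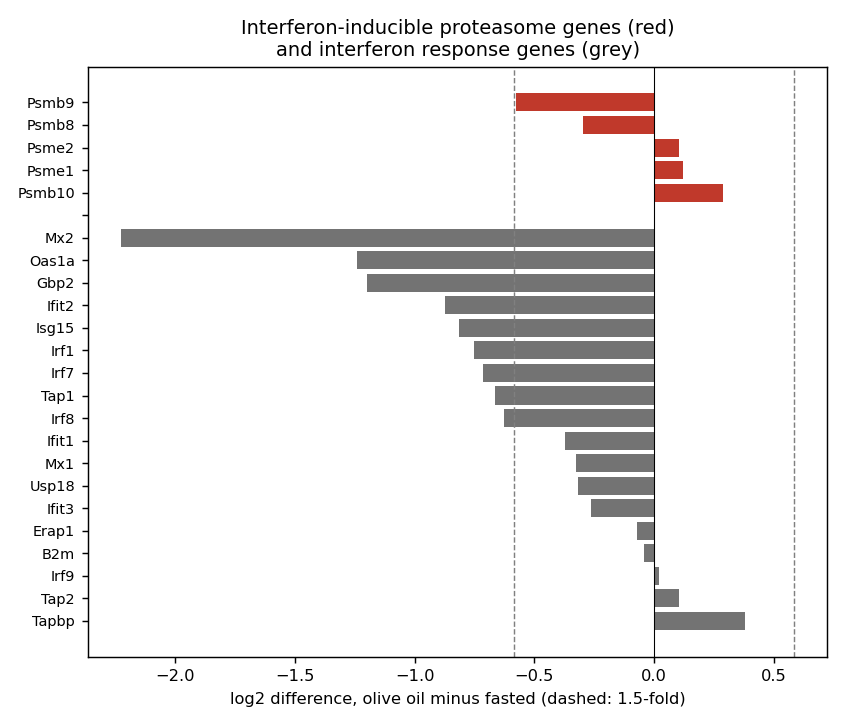
Log2 difference of olive oil minus fasted (horizontal axis, 1 bar per gene) for the interferon-inducible proteasome genes in red and the 18 measured genes of the interferon and antigen presentation list in grey, with dashed lines at 1.5-fold. Of the grey bars, 15 point to lower signal after olive oil, whereas Psmb10, Psme1 and Psme2 point the other way and Psmb8 and Psmb9 do not.

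Immune cells express the immunoproteasome at high levels, so their markers were read on the same arrays. Of 8 lymphocyte markers analysed, 1 was measured, Ptprc, the common leukocyte antigen, at 108.3 on the olive oil array and 158.6 on the fasted array. The 8 summed to 233.7 after olive oil and 288.8 in fasted rats, and the other 7 were not measured. Of the T cell receptor complex, Cd3d was below the floor of 12.8 on both arrays, Cd3e had 37.0 after olive oil and 28.0 in fasted rats, and Cd3g had 8.1 (olive oil) and 36.3 (fasted). Cd8a and Cd79b were below the floor on both arrays, whereas Cd2 was above it after olive oil only, at 17.9. Nkg7, of cytotoxic cells, had 44.2 on the olive oil array and 30.7 on the fasted array. These markers thus went both ways near the floor. All 6 Kupffer cell markers analysed were measured, 4 of them higher, and summed to 4766 on the olive oil array and 4151 on the fasted array. Clec4f, the marker of resident liver macrophages, had 1882 on the olive oil array and 1552 on the fasted array and weighs most in that sum. The 2 lower ones were Adgre1 and Cd68. Adgre1 had 119.1 after olive oil and 156.6 in fasted rats, and Cd68 had 273.2 (olive oil) and 274.5 (fasted). In whole liver, fewer cells of a type and less RNA per cell cannot be told apart. The part of these cells in the values of Psmb8 and Psmb9 was not tested.

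The ATPase ring of the 19S cap was mostly higher. Of its 6 genes, 5 had a higher signal on the olive oil array and 1 a lower one, with a median of 0.22, a fold of 1.17. Psmc4 had 1667 after olive oil and 1333 in fasted rats, a log2 difference of 0.32, on its bright probe set; its other probe set was below the floor on both arrays. Psmc5 had 987.1 (olive oil) and 793.7 (fasted), and Psmc1 914.3 after olive oil and 770.7 in fasted rats, with log2 differences of 0.31 and 0.25. These 3 exceeded the probe scatter. Psmc2 stood at 3597 on the olive oil array and 3134 on the fasted array. Psmc3, the lowest, had 1282 on the olive oil array and 1318 on the fasted array, a log2 difference of -0.041. Psmc6 had 1236 (olive oil) and 1095 (fasted) on its brightest probe set, and its 3 probe sets did not go the same way, at 0.17, -0.13 and 0.45.

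Among the non-ATPase subunits of the 19S cap, 8 of 11 were higher, and the highest ones belong to the lid, the part that holds the enzyme which removes ubiquitin. Psmd12 had 1019 on the olive oil array and 700.0 on the fasted array, 1.46-fold higher and second among all members. Psmd8 had 2076 after olive oil and 1528 in fasted rats, 1.36-fold higher. Psmd13 had 430.2 on the olive oil array and 332.0 on the fasted array, 1.30-fold higher, and Psmd3 had 470.2 (olive oil) and 370.9 (fasted), 1.27-fold higher. These 4 lid subunits each had 1 probe set, and their differences exceeded the probe scatter.

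Other lid subunits did not share that size. Psmd14, the deubiquitinating enzyme itself, had 1337 after olive oil and 1251 in fasted rats, a log2 difference of 0.096, with 0.22 and 0.49 on its other probe sets. Psmd7, its partner, had 1215 after olive oil and 1087 in fasted rats, and its 2 probe sets differed by 0.16 and 0.19 on the log2 scale. Psmd6 stood at 1371 on the olive oil array and 1300 on the fasted array. Psmd11 had 1870 on the olive oil array and 1933 on the fasted array, and its 2 measured probe sets lay close together at -0.048 and -0.034. Within the lid the differences therefore ran from -0.048 to 0.54.

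The base subunits that dock substrates were nearly equal on the arrays. Psmd2, which binds ubiquitin shuttle proteins, had 1180 after olive oil and 1196 in fasted rats. Psmd1, its large neighbour in the base, had 628.8 (olive oil) and 674.9 (fasted), a log2 difference of -0.10. Psmd4, a ubiquitin receptor, had 690.0 after olive oil and 655.9 in fasted rats. These 3 differences were within the probe scatter. The median over the 11 non-ATPase subunits was 0.096. It was 0.023 after centring on array medians and 0.17 when the probe sets of a gene were averaged. Over the 17 genes of the 19S cap it was 0.17, with 13 higher and 4 lower.

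Alternative caps and the inhibitor PI31 went both ways, 2 of 4 genes being higher. Psme1 and Psme2 form the activator PA28, which interferon induces. Psme1 had 3598 on the olive oil array and 3307 on the fasted array, a log2 difference of 0.12. Psme2 had 1295 on the olive oil array and 1206 on the fasted array, a log2 difference of 0.10. Both were within the probe scatter, and neither was lower as Psmb8 and Psmb9 were. Psme4, the nuclear activator PA200, had 982.5 (olive oil) and 1117 (fasted) on its brightest probe set, and its 3 probe sets gave -0.18, -0.13 and 0.40.

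Psmf1 had the second lowest difference among the 44 proteasome genes. It encodes PI31, a protein that inhibits the core in vitro. Its signal was 799.3 on the olive oil array and 1120 on the fasted array, 1.40-fold lower, a log2 difference of -0.49 on a single probe set. The 4 probe sets that cover Psme3, the third activator of this kind, are annotated to Aoc3 and G6pc1 as well, and Psme3 was not analysed here.

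Among assembly factors for the alpha ring, Psmg1 and Psmg2 went in opposite directions, whereas Psmg3 and Psmg4 went the same way. Psmg1 and Psmg2 act as a dimer that places alpha subunits. Psmg1 had 954.4 after olive oil and 1178 in fasted rats, 1.23-fold lower, while Psmg2 had 578.0 after olive oil and 481.4 in fasted rats, higher by a log2 difference of 0.26. Psmg3 and Psmg4 form the other dimer. Psmg3 had 321.7 on the olive oil array and 270.7 on the fasted array, and Psmg4 had 780.0 on the olive oil array and 667.8 on the fasted array, with log2 differences of 0.25 and 0.22. The 3 higher genes lay between 0.22 and 0.26, close to the probe scatter, and Psmg1 at -0.30 lay apart from them.

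Assembly factors for the ATPase ring were flat except for Psmd9. Psmd5 had 778.1 on the olive oil array and 778.4 on the fasted array, and Psmd10, also called gankyrin, had 437.0 (olive oil) and 441.0 (fasted). Psmd9 had 707.3 after olive oil and 504.8 in fasted rats, 1.40-fold higher. A second, dim probe set of Psmd9 had 106.0 on the olive oil array and 36.1 on the fasted array, a log2 difference of 1.55. It lay below the filter signal on the fasted array and passed only through the olive oil array, so it is no second reading of the size or direction. Over all 7 assembly factors the median was 0.22, 0.098 above the constitutive core, with 4 higher and 3 lower. After quantile or loess normalization 6 of the 7 were higher, Psmd5 and Psmd10 passing 0 by less than 0.02.

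The name-only matches stood apart from the classes in function. Psmc3ip, a factor of meiotic recombination, was dim at 69.0 after olive oil and 96.9 in fasted rats, a log2 difference of -0.49. Psme3ip1, which binds the activator Psme3, had 348.1 (olive oil) and 306.9 (fasted). Without this pair, 30 of 44 genes were higher, and the median remained 0.12.

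Other proteins that build, tune or accompany the proteasome were read from a list of 14, of which 13 were analysed. Of these, 8 had a higher signal after olive oil and 5 a lower one, with a median of 0.060. By a fold of 1.5 or more, 2 were higher and 0 lower, or 15.4% higher, where 9.46% of all measured genes were, so that a count of 2 is near the array-wide share. Zfand2a, which binds the 19S cap under proteotoxic stress, had 275.4 on the olive oil array and 109.5 on the fasted array, 2.52-fold higher. Akirin2, which brings proteasomes into the nucleus, had 227.4 after olive oil and 139.6 in fasted rats, 1.63-fold higher. Adrm1, a ubiquitin receptor of the cap, had 254.2 on the olive oil array and 191.1 on the fasted array, 1.33-fold higher. Fbxo7, a partner of PI31, was the lowest at 490.1 (olive oil) and 651.2 (fasted). Pomp, the maturation chaperone of the core, was nearly equal at 3751 after olive oil and 3598 in fasted rats, and was named after its values were seen.

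The NRF1 axis was read in the same way, over 9 measured genes. Of these, 4 were higher and 5 lower, with a median of -0.14, and 1 each was beyond 1.5-fold, near the array-wide shares. These counts use the brightest probe set of each gene. The other probe set of Keap1 gave -0.95, against 0.055, and that of Mafg -0.62, against -0.14. Keap1 and Mafg were named after their values were seen. Nfe2l1, which encodes NRF1, had 218.0 on the olive oil array and 203.0 on the fasted array, and its 3 probe sets ranged from -0.17 to 0.14. Nfe2l2, its relative NRF2, had 842.9 on the olive oil array and 1779 on the fasted array, 2.11-fold lower on 1 probe set. Mafk, a binding partner of both, had 210.2 (olive oil) and 117.2 (fasted), 1.79-fold higher. Ddi2, the protease that activates NRF1, had 866.6 after olive oil and 732.4 in fasted rats, a log2 difference of 0.24. The 7 members with TGACNNNGC in their promoter window had a median log2 difference of 0.011, against 0.13 for the 35 without it. The 7 went both ways, Psmd9 and Psma3 being higher and Psmb2 and Psme4 lower, though within the probe scatter. As given above, the probe sets that cover Psma3 differed from each other, as did those of Psme4. For the interferon core the medians were 0.16 for the 7 members with it and 0.11 for the 35 without it. These medians, like those for TGACNNNGC, lay within the probe scatter, with 1 array per group. A match describes letters and not binding, and the part of either element in the members' differences was not tested.

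Genes that tag proteins and deliver them to the 19S cap went both ways. Of 15 listed genes for ubiquitin activation and delivery, 9 were analysed and measured, and the other 6 were not analysed here. Of the 9, 3 were higher and 6 lower, 33.3% higher against 48.3% of all measured genes, too few genes to set apart from that share. Their median was -0.099, and none was beyond 1.5-fold. Uba6, a ubiquitin-activating enzyme, was the lowest at 216.8 on the olive oil array and 324.5 on the fasted array. Nploc4 and Ufd1, the cofactors that bring ubiquitin conjugates to the unfoldase Vcp, were higher. Nploc4 had 720.1 after olive oil and 546.5 in fasted rats, and Ufd1 had 671.8 (olive oil) and 535.7 (fasted). Their other measured probe sets gave smaller log2 differences, 0.053 for Nploc4 and 0.21 for Ufd1, both within the probe scatter. Vcp itself had 2246 on the olive oil array and 2434 on the fasted array.

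Ubiquitin ligases and regulators known from muscle wasting under glucocorticoids went several ways. Fbxo32 and Trim63, the muscle ligases, were below the floor on both arrays. Fbxo31, another F-box gene, had 1804 after olive oil and 624.6 in fasted rats, 2.89-fold higher. Foxo1, a fasting-activated transcription factor, had 438.9 (olive oil) and 239.0 (fasted), 1.84-fold higher, and Klf15, a glucocorticoid-induced factor, had 2403 after olive oil and 1562 in fasted rats, 1.54-fold higher. Of 5 measured genes in this group, 3 were higher and 0 lower by a fold of 1.5 or more, against 9.46% and 10.1% of all measured genes. This short list too was written with earlier results of these arrays known, so the count is a description and not a test. The other measured probe set of Klf15 gave a log2 difference of 0.47, short of 1.5-fold. On their brightest probe sets, Fbxo31, Foxo1 and Klf15 had wider differences than any proteasome subunit except Psma3, which exceeded the value of Klf15.

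**Figure D5:**
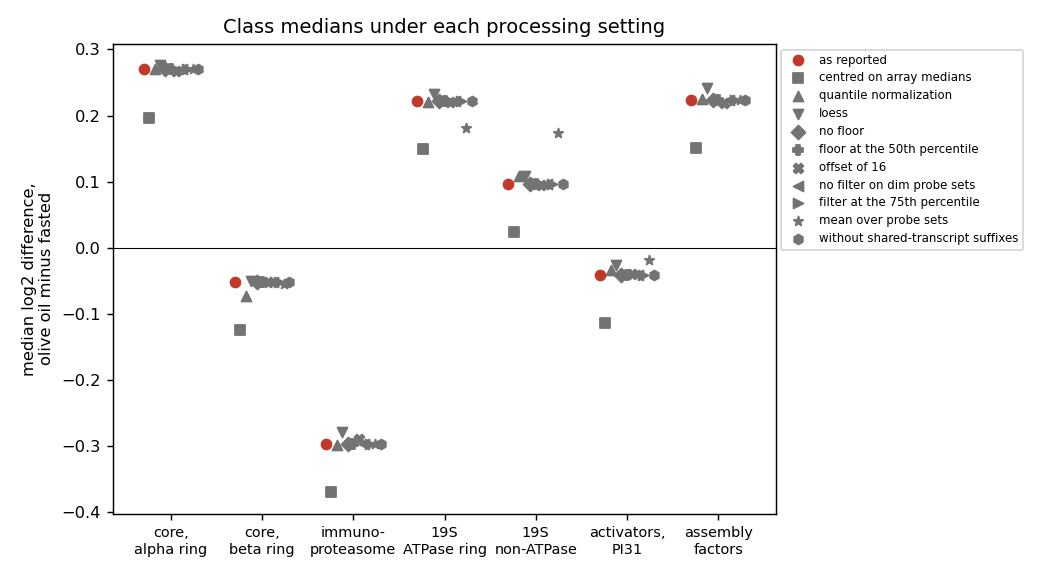
Median log2 difference of olive oil minus fasted (vertical axis) for each class of proteasome gene under the processing as reported (red) and 10 other settings (grey symbols). Each class of proteasome gene keeps its side of 0 in these settings; centring on array medians lowers every class median by the same step, to 0.20 in the alpha ring and -0.37 in the immunoproteasome.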

How the data were processed

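Liver RNA on 2 Affymetrix rat arrays was analysed, 1 per group, grouped by sample title. The values deposited by the authors are linear signal intensities, 1 per probe set. Affymetrix Expression Console was used per the submitters' processing notes; for the algorithm and version, none is given in the sources used here. After trimming 2% at each end, the mean signal was 200.1 on both arrays, so that a scaling to a common level before deposit is likely. No detection calls were used, and the number of arrays limits the precision.

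The 57 control probe sets were set aside. Signals under 12.8, the 25th percentile of the other 31042, were set to that floor before taking log2. Differences are olive oil minus fasted. Of these probe sets 20826 had 1 gene, 436 several and 9780 none; gene IDs of 20758 matched RefSeq, GRCr8, with 0 symbols changed. Genes were filtered at the median of the probe sets' mean log2 signals. No test was possible with 1 array per group, so a fold of 1.5 stood for a call, with all measured genes as background.

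Members and lists were chosen with earlier results of these data known. Members were named by class, with both signals for those at a log2 difference of at least 0.32 and for catalytic, immunoproteasome and activator genes, and in practice for all; up to 3 genes of largest difference either way were named per list, and others are marked. Proteasome classes follow textbook roles. Promoter sequences are RefSeq's, 1 window per gene, the first listed.

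Alternatives were median centring, quantile and loess normalization, other floors, an offset of 16, other filters, means over probe sets, leaving out shared-transcript suffixes and other folds. Functions were tested on simulated data. Python 3.11.15, numpy 2.4.6, pandas 2.3.3, statsmodels 0.14.6 and matplotlib 3.10.9 were used.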

Additional observations from a re-analysis of the deposited data

How the results depend on the processing

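Of 460 values for 46 members under 10 alternatives, 459 moved by less than the probe scatter of 0.23. The exception was Psmd9 at 1.02 with the mean over its probe sets, of which 1 passed the filter only through the olive oil array. Much of this was built in. The floors, the filters and leaving out suffixes left every member's value unchanged. Averaging cannot move the 37 members with 1 probe set, and centring shifts every member by the same small step. The count is therefore weak evidence of stability. Sign changes touched only Psmb5, Psmd5, Psmd10, Psme1 and Psme4. That of Psme1 came from averaging in a probe set below the filter, at 24.3 on the olive oil array and 28.9 on the fasted array. Centring on array medians lowered the medians of all members, constitutive core and regulatory caps to 0.051, 0.053 and 0.049, and made 1 member, Psmb9, at least 1.5-fold lower. With the mean over probe sets 2 members, Psma3 and Psmd9, were at least 1.5-fold higher, against 9.28% of measured genes. The caps' median was then 0.035 above the core's, in place of -0.0043. That caps' median was 0.16, the value of Psmc4, whose average takes in a probe set below the floor. At 2-fold 0 members were higher. At a smaller fold, a log2 difference of 0.32, 9 were higher and 3 lower. Of all measured genes, 80.1% lay below Psmc4, the smallest of these 9, so 9 of 46 is near the array-wide share. The array-wide shares for the 3 lower and at 2-fold are not given here. Chosen after seeing the data were the alpha ring alone, 0.27, the beta ring alone, -0.051, and the 19S genes alone, 0.17 and 0.047 above the core. The causes were not tested, beyond the construction of each alternative. The other 108 class medians and counts kept their direction and moved within their probe scatter, or by less than 1.5 times for counts. Many of these 108 could hardly move either, for the same reasons. With 1 array per group, variation between rats was not measured.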
